A study of Mus musculus with 6 samples.

Results

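Cytosolic ribosomal protein genes encode the protein parts of the ribosome that translates nuclear mRNAs. They were taken as every gene symbol in the 6 count tables that matches a fixed pattern of Rpl and Rps names, which left out pseudogenes and S6 kinases. It found 79 of 49997 genes, 48 of the large and 31 of the small subunit. The mice carried Rosa26-Cas9, which expresses SpCas9 in all cells, and were given a subretinal adeno-associated virus whose guide RNA was directed at Nr2e3 (guide libraries) or a non-targeting control guide (control libraries). The virus also carried mCherry under a human GRK1 promoter, which is directed to photoreceptors, and mCherry-expressing cells were sorted 6 months later. The labels place the injection at postnatal day 21 in one text and at 4 weeks in another. Each group has 3 libraries, each from 2 retinas of 1 mouse and about 100000 cells. Guide replicate 1 and all 3 controls are male, and guide replicates 2 and 3 are female.

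The ribosome has a large subunit, which forms peptide bonds, and a small subunit, which reads the mRNA. Each cytosolic ribosome holds 1 copy of most of these proteins, the acidic stalk proteins being the known exception, and their mRNAs are known to share a pyrimidine tract at the 5′ end through which mTORC1 and Larp1 control translation. Rod photoreceptors renew their outer segment membranes daily and are known for heavy protein synthesis in the inner segment. In bulk samples such as these, fewer cells of a type and less RNA per cell cannot be told apart.

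Gene counts per library ran from 24705561 to 34286248. Nr2e3, the targeted gene, was at 1773 to 2303 CPM (counts scaled to a total of 1000000 gene counts) in guide and 1608 to 1695 CPM with the control guide, and whole-gene counts do not read small deletions, so this does not check the labels. Rod markers were the most abundant of the marker lists, with a sum over 8 genes of 141492 to 166119 CPM. Cone markers (8 genes) summed to 13712 to 16623 CPM in guide and 4126 to 8418 CPM in control libraries, so every guide library was above every control library. That holds for the sum and not for each gene, as the median log2 fold change (guide over control) of the 8 genes was 0.04. Of other cell types, 12 microglia markers summed to 34.7 to 347 CPM and 10 Muller glia markers to 696 to 1220 CPM. The 7 pigment epithelium markers summed to 1.70 to 4.17 CPM in guide libraries and to 19.6, 20.9 and 5.66 CPM in control replicates 1, 2 and 3, while Rpe65, a defining marker among them, stayed at or below 0.0885 CPM. The part of these differences in cell makeup in the comparisons of ribosomal protein genes was not tested. Control replicate 3 stood apart, with the highest microglia sum and the lowest cone marker sum (4126 CPM against 7495 and 8418 CPM in the other controls).

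Start regions of these genes carry runs of C and T. RefSeq (GRCm38.p6) start windows were available for 59 of the 79 genes, with 70 annotated starts. In the 30 bases centred on each start, an uninterrupted run of at least 7 C or T bases was found at 35 of the 70 ribosomal protein starts and at 18.4% of 21192 starts of other protein-coding genes. The motif CTTCCG or its reverse complement CGGAAG, the core letters that ETS-family factors are known to bind, was present in 62.9% of the 300-base promoters of these genes (250 bases before and 50 after the start) and in 21.0% of the others. The search covered both strands. The matches are letters only, and the 2 motifs can overlap where a C and T run contains CTTCC.

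The windows below belong to genes that the results turn on, the first 6 with a run and the last 2 without one of 7 bases. They are printed 5′ to 3′ with the longest run of C or T in capitals. Rps6 is on chr4:86857353-86857382 (minus strand), Rpl35 on chr2:39005117-39005146 (minus), Rplp2 on chr7:141447636-141447665 (plus), Rps27 on chr3:90213634-90213663 (minus), Rps27l on chr9:66946071-66946100 (plus), Rpl22l1 on chr3:28805493-28805522 (plus), Rplp0 on chr5:115559452-115559481 (plus) and Rpl37a on chr1:72711245-72711274 (plus).
Rps6: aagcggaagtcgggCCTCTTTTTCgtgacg
Rpl35: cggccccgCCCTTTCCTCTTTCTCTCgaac
Rplp2: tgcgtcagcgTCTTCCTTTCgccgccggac
Rps27: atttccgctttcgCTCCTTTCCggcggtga
Rps27l: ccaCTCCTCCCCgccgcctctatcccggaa
Rpl22l1: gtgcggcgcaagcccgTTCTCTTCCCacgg
Rplp0: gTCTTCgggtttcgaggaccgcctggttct
Rpl37a: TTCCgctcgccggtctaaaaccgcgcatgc
Rps6 and Rpl35 show a tract that spans the annotated start, as does Rplp2. In Rps27l, the paralog of Rps27, which has 2 annotated starts, the longest run ends before the start shown, and in Rpl22l1, the paralog of Rpl22, it begins after it. Rplp0 and Rpl37a, which have the lowest and the highest fold change relative to the summed members below, have runs of 5 and 4 bases.

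Ribosomal protein mRNAs were abundant in every library. Of the 79, 1 had a mean above 1000 CPM, 63 lay between 100 and 1000 CPM, 14 between 20 and 100 CPM, and 1 was near 0. The last, Rpl39l, a copy of Rpl39 known for its expression in testis, had 0, 2 and 0 counts in guide and 2, 0 and 0 in control libraries, where 3 counts correspond to 0.0875 to 0.121 CPM. It was the only member to fail the count filter, so 78 were tested. Per kilobase of transcript, the median over these 78 was 333 CPM per kb against 4.35 CPM per kb over 12627 other tested protein-coding genes, and all 78 lay above that median.

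Levels per length differed widely among the members, most of whose proteins the ribosome holds in equal copies. Rps14, a protein of the small subunit platform (chromosome 18, 60774596 to 60778546), was the highest at 1443 CPM per kb, followed by Rpl3, which reaches toward the peptidyl transferase centre (chromosome 15, 80077781 to 80083406), at 1409 CPM per kb. Next in the large subunit came Rpl9 at 1019 and Rpl8 at 883 CPM per kb, and the small subunit gene Rps6, the target of the S6 kinases, was at 799 CPM per kb. At the other end stood Rps15a at 30.4 and Rps2 at 32.8 CPM per kb in the small subunit, and Rpl12 at 55.6 and Rpl13 at 62.9 CPM per kb in the large subunit. For Rps15a the annotated principal transcript is 5130 bases long, which lowers its value per kb. Medians of the subunits were close, 321 CPM per kb for 47 large and 345 CPM per kb for 31 small subunit genes.

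**Figure D1:**
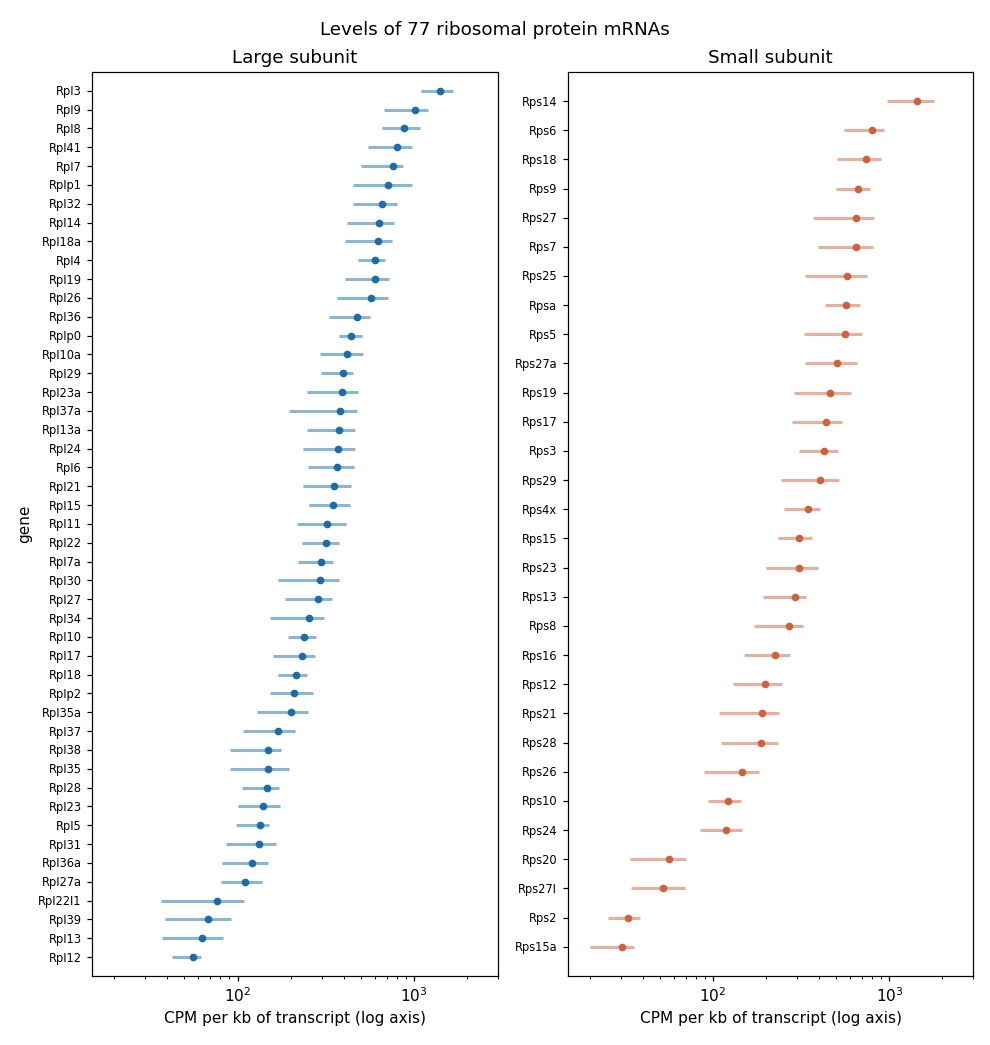
Mean level of 77 of the 78 tested ribosomal protein mRNAs in CPM per kb of transcript on a log axis (dots), with the range over the 6 libraries (bars), ordered within each subunit. Rps14 and Rpl3 lead at 1443 and 1409 CPM per kb, and Rps15a and Rps2 are lowest at 30.4 and 32.8 CPM per kb.

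The order of the genes was nearly the same in all libraries. Across the 78 genes, Pearson's r of log2 CPM between any 2 libraries was at least 0.981 and Spearman's rho at least 0.977, a description over genes that share libraries and lengths. Reads with several alignments stand in a row of their own in the tables, outside the gene counts, and ribosomal protein genes have many processed pseudogenes. The part of either in the spread between genes was not tested. The files hold 321 rows named as Rpl or Rps pseudogenes, which took 2.58 to 2.80 counts for every 100 counts of the functional genes. Exons of 22 members overlap another gene other than a small RNA, on the opposite strand in 19 of them, and a further 16 overlap small RNA genes only.

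The summed share of ribosomal protein counts differed more between libraries of a group than between groups. It was 2.64, 2.88 and 2.14% of gene counts in guide replicates 1, 2 and 3 and 2.98, 2.6998 and 1.74% in control replicates 1, 2 and 3. Guide and control libraries overlap, and the lowest share of each group is that of its replicate 3. Group means were 2.55 ± 0.378% and 2.48 ± 0.651% (SD, n = 3 each), a difference of 0.0766 percentage points that is smaller than either SD. Large subunit genes took 1.56 ± 0.213% in guide and 1.52 ± 0.383% in control libraries, and small subunit genes 0.993 ± 0.165% and 0.955 ± 0.269%. The difference turned to -0.290 percentage points without control replicate 3 and to -0.0868 without guide replicate 2, so its direction rests on those libraries. Without control replicate 3 the differences of the large and small subunit shares turned as well, from 0.0391 and 0.0374 to -0.177 and -0.113 percentage points.

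The genes moved between libraries almost as one. Of the 78 with a mean above 1 CPM, 77 had their lowest value in control replicate 3, against 15.4% of all tested genes above that level. The second lowest value fell in guide replicate 3 for 73 of the 78, against 16.0% of all such genes. Both together held for 72 of 78 members and for 6.49% of the 13723 genes compared. The highest value was in control replicate 1 for 40 and in guide replicate 2 for 30. The only member whose lowest value lay elsewhere was Rplp0, the base of the ribosomal stalk, which was at 513 CPM in guide replicate 1 and 558 CPM in control replicate 3.

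**Figure D2:**
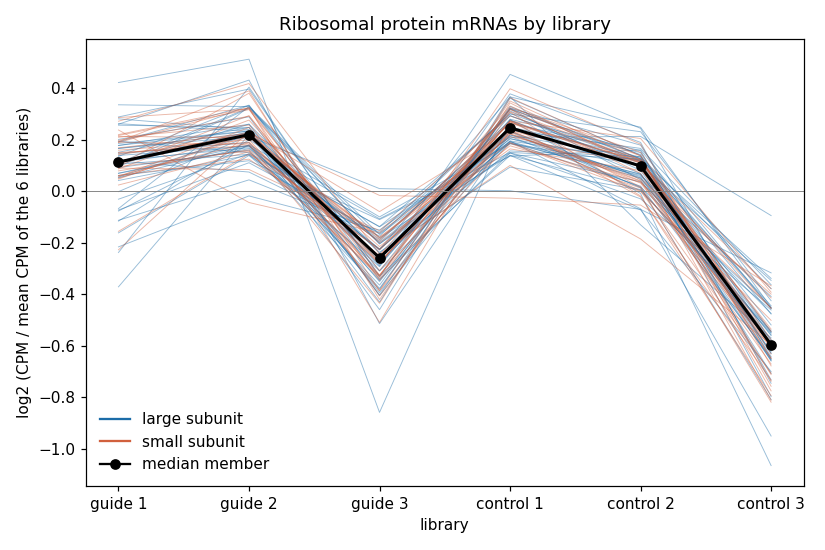
Log2 of the CPM of each of 78 ribosomal protein genes over its mean of the 6 libraries (thin lines, blue for large and orange for small subunit), with the median member as a black line. The lines fall together in guide replicate 3 and further in control replicate 3, where 77 of 78 have their lowest value.

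The size of the fall was similar in both subunits. Against the mean of the other 5 libraries, the median member was at a log2 ratio of -0.69 in control replicate 3 and -0.31 in guide replicate 3, while the median of all 13723 genes was 0.14 and 0.03. In control replicate 3 the median was -0.66 for large and -0.70 for small subunit genes. Against controls 1 and 2 alone, control replicate 3 was lower in all 78, from -0.28 for Rpl10 to -1.20 for Rpl22l1, with a median of -0.74. Rpl10, an X-linked protein that joins the large subunit late in assembly, was at 192, 182 and 154 CPM in control replicates 1, 2 and 3. Rpl22l1 was at 51.3, 42.1 and 20.3 CPM in the same libraries and at 56.8, 60.4 and 23.4 CPM in guide replicates 1, 2 and 3, so that it was at its lowest in both libraries numbered 3.

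Short transcripts fell most, among members and among other genes. In control replicate 3 the median log2 ratio to the other controls was -0.84 for 34 members under 700 bases, -0.70 for 37 of 700 to under 1400 bases and -0.60 for 5 of 1400 to under 2800 bases. Other genes with a mean of at least 20 CPM had medians of -0.56 (149 genes), -0.19 (709 genes), 0.10 (1778 genes) and, at 2800 bases or more, 0.26 (2737 genes). Members therefore lay below other genes of their own length class in each of the 3 classes that hold more than 2 of them. Over the 78 members, Pearson's r between log2 length and this ratio was 0.38 (Spearman's rho 0.46), a description over genes of the same libraries. The same relation in guide replicate 3 against guides 1 and 2 was 0.35 (rho 0.46).

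**Figure D3:**
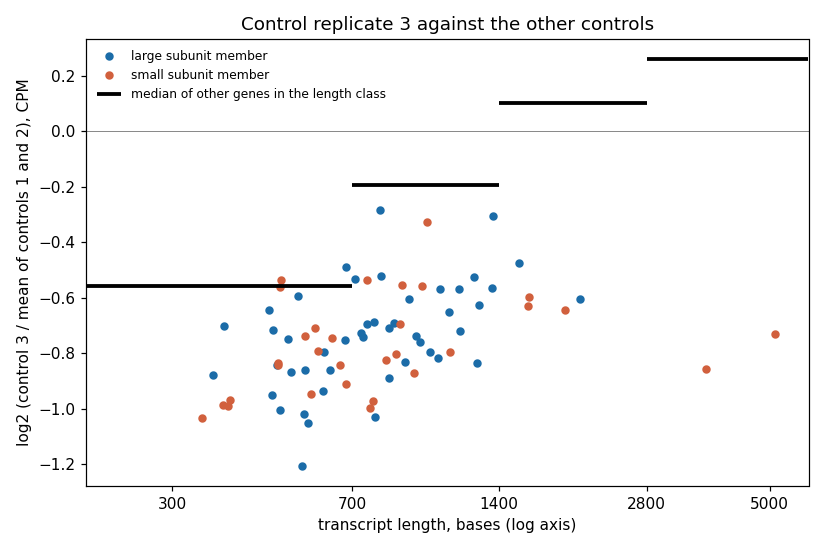
Log2 ratio of control replicate 3 to the mean of control replicates 1 and 2 (CPM) against transcript length in bases on a log axis, for large (blue) and small (orange) subunit genes, with black bars at the median of other genes in each length class. All 78 members lie below 0, and the medians of other genes rise from -0.56 under 700 bases to 0.26 at 2800 bases or more.

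Other measures of the libraries differed as well, and their part in the shift was not tested. Mitochondrially encoded mRNAs (13 names) took 1.27 and 1.31% of gene counts in control and guide replicate 3 and 2.16 to 2.75% in the other 4 libraries. Reads with several alignments took 4.23 and 4.62% of all counts there and 5.56 to 6.25% elsewhere. Counts in no feature were highest in control replicate 3 (17.6% against 13.6 to 15.5%). In control replicate 3 all 12 microglia markers were above both other controls and summed to 347 CPM, against 34.7 and 39.5 CPM, whereas all 6 amacrine markers above 1 CPM were below them. In guide replicate 3, 0 of these 6 amacrine markers were below both other guides. The 8 listed amacrine markers summed to 160, 57.2 and 285 CPM in guide replicates 1, 2 and 3. The 12 microglia markers summed to 36.9, 174 and 130 CPM in guide replicates 1, 2 and 3.

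Genes outside the pattern gave the closest matches to the shared profile. With the log2 CPM of the median member over the 6 libraries, the 5 highest Pearson's r among 5502 other genes of at least 20 CPM were those of Atp5j2 (0.996), Ndufb4 (0.995), Atp5h (0.995), Mrps14 (0.994) and Gm9843 (0.993). Atp5j2 and Atp5h encode ATP synthase subunits, Ndufb4 a subunit of respiratory complex I and Mrps14 a protein of the mitochondrial ribosome. Atp5h was at 340, 368 and 267 CPM with the Nr2e3 guide and 357, 319 and 215 CPM in control replicates 1, 2 and 3. Among members, the profile of Rplp0 was the least like the median (r = 0.36), followed by Rplp2 (0.67) and Rps10 (0.74).

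Guide and control libraries were then compared for each gene. With p-values of edgeR's quasi-likelihood fit adjusted by Benjamini-Hochberg over 17138 genes, 0 of the 78 ribosomal protein genes were higher and 0 lower, where 0.344% of all genes passed (0.315% higher and 0.0292% lower). By the same test, 0 members had an unadjusted p under 0.05, against 5.69% of all genes, and DESeq2 called 0 (1.58% of all genes) and limma-voom 0 (1.04%). Log2 fold changes (guide over control) ran from -0.17 to 0.44 with a median of 0.14, against -0.01 over all tested genes. They were above 0 for 71 members and below 0 for 7, with medians of 0.13 in the large and 0.14 in the small subunit. Standard errors (SE) ran from 0.17 to 0.47 with a median of 0.28, against 0.17 over 2670 other genes of 50 to 1000 CPM, so that a change of the size of these fold changes was not detectable for most members. The median of the members turned to -0.11 without control replicate 3, when 16 of 78 were above 0, and to -0.01 without guide replicate 2. It was also -0.01 with limma-voom, which here gave each library a quality weight, so test and weights both differ from edgeR. Without control replicate 1 the median rose to 0.36.

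**Figure D4:**
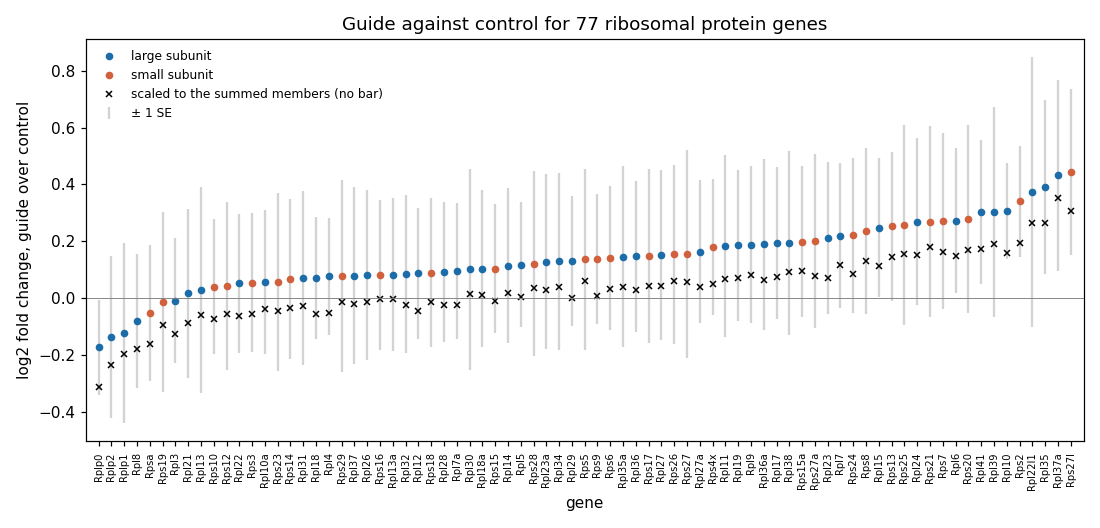
Log2 fold change of guide over control for 77 of the 78 tested ribosomal protein genes in ascending order (dots, blue for large and orange for small subunit, grey bars ± 1 SE from edgeR, n = 3 each), with crosses for the same difference after scaling to the summed members. Values run from -0.17 for Rplp0 to 0.44 for Rps27l, and none passed the test.

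The 3 highest fold changes were those of Rps27l, Rpl37a and Rpl35. Rps27l, a paralog of Rps27 known as a p53 target, was at 31.2, 34.5 and 21.8 CPM with the Nr2e3 guide and 27.7, 22.7 and 17.1 CPM in control replicates 1, 2 and 3 (log2 change of 0.44, SE 0.29, edgeR adjusted p = 0.995). The groups overlap, because guide replicate 3 lies below control replicates 1 and 2. Rpl37a (chromosome 1, 72711260 to 72713813) was at 267, 265 and 184 CPM with the Nr2e3 guide and 242, 202 and 110 CPM with the control guide (0.43, SE 0.34). Rpl35 (chromosome 2, 39001581 to 39005131) was at 171, 184 and 111 CPM against 154, 133 and 86.2 CPM (0.39, SE 0.31). In each of these genes the replicate 3 library was the lowest of its group.

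Of the 78 tested members, groups did not overlap in CPM for 2, against 12.2% of all tested genes. These were Rpl10, at 206, 222 and 193 CPM with the Nr2e3 guide and 192, 182 and 154 CPM in control replicates 1, 2 and 3 (log2 change of 0.31, SE 0.17, edgeR adjusted p = 0.977), and Rps2, a protein of the mRNA entry site. Rps2 was at 36.8, 38.3 and 32.4 CPM with the Nr2e3 guide and 32.2, 31.6 and 25.4 CPM with the control guide (0.34, SE 0.20, adjusted p = 0.993). Each guide library of both genes was above each control library in CPM, but guide replicate 3 and control replicate 1 were nearly tied. They were at 192.7 and 191.6 CPM for Rpl10 and at 32.39 and 32.15 CPM for Rps2. The TMM factors of the test, which CPM leaves out, were 1.027 and 0.966 in these libraries, so this order depends on the scaling. Neither gene passed in any of the 18 alternative settings.

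The lowest fold changes belonged to the stalk, the flexible arm through which elongation factors reach the ribosome. Rplp0 (chromosome 5, 115559467 to 115563729) was at 513, 588 and 537 CPM with the Nr2e3 guide and 689, 690 and 558 CPM in control replicates 1, 2 and 3 (log2 change of -0.17, SE 0.17, adjusted p = 0.995). Rplp1, one of the acidic proteins that bind to it, was at 317, 391 and 290 CPM against 486, 420 and 226 CPM (-0.12, SE 0.32). Rplp2, the other acidic protein, was at 155, 234 and 172 CPM against 259, 239 and 147 CPM (-0.13, SE 0.29). In all 3 genes, each guide library lay below control replicates 1 and 2, while control replicate 3 reached into or below the guide values. Without control replicate 3 their log2 fold changes were -0.31, -0.41 and -0.38, and without control replicate 1 they were -0.08, 0.15 and 0.07, none passing the test. Rpl8 had the next lowest value (-0.08, SE 0.24), at 695, 775 and 673 CPM with the Nr2e3 guide and 925, 882 and 560 CPM with the control guide.

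Scaling each library to its summed ribosomal protein counts compares members with each other. It removes the part of the shift that is equal in all members, but not its differences between them. In that fit 0 of 78 members passed (edgeR adjusted p = 0.99993 for each), where 0.0817% of all genes did, and 0 had an unadjusted p under 0.05, against 2.49% of all genes. This scaling moves the median of all genes from -0.01 to -0.19. Relative log2 fold changes of members ran from -0.31 (Rplp0, SE 0.23) to 0.35 (Rpl37a, SE 0.23), with a median SE of 0.22. Without control replicate 3, 0 members passed, Rplp0 was at -0.17 and Rpl37a at 0.26, and the extremes were Rplp1 at -0.29 and Rps27l at 0.36. The median of all members was 0.03, that of the large subunit 0.02 and that of the small subunit 0.04.

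As a share of the summed members, groups did not overlap for 10 of the 78 genes, against 6.27% of all tested genes on the same scale. Scaling by member counts takes the shared shift out of the members and puts it into other genes. In CPM, 12.2% of all tested genes did not overlap, so the 10 genes are not read as an excess. The 10 were Rpl6, Rpl7, Rpl19, Rpl35, Rpl37a, Rpl41, Rps13, Rps15a and Rps27l, higher in guide, and Rplp2, lower. Rpl37a took 1.01, 0.922 and 0.858% of member counts in guide and 0.811, 0.747 and 0.629% in control replicates 1, 2 and 3. Rpl41, which encodes the smallest ribosomal protein, took 2.00, 1.78 and 1.73% in guide and 1.55, 1.62 and 1.71% in control libraries, a gap that is narrow at the replicate 3 libraries. The 3 stalk genes together took 3.73, 4.21 and 4.67% in guide and 4.801, 4.995 and 5.34% in control libraries. Each guide library was below each control library for that sum, and within each group replicate 3 had the highest sum. Of the 3 genes, only Rplp2 kept the groups apart by itself. Rplp0 took 2.51% in guide replicate 3 and 2.31% in control replicate 1. Rplp1 took 1.30% in control replicate 3, below the 1.36 and 1.35% of guide replicates 2 and 3. The sum was chosen after the values were seen and is given without a test.

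X-linked members are of interest because 2 of the guide animals are female and no control is. Rpl10, Rpl36a, Rpl39 and Rps4x together took 2.61, 2.58 and 2.60% of member counts in guide replicates 1, 2 and 3 and 2.31, 2.33 and 2.66% in control replicates 1, 2 and 3. Guide replicate 1, the male guide animal, had a share close to those of the female guide animals, and control replicate 3 was the highest of all 6. The guide mean exceeded the control mean by 0.164 percentage points with control replicate 3 and by 0.276 without it, when each guide library was above each control library. The sum was chosen after the values were seen and has no test, and sex and guide cannot be told apart in the 2 female animals. Rps4x, a small subunit protein encoded on the X chromosome (102184941 to 102189391), was at 364, 395 and 290 CPM with the Nr2e3 guide and 380, 345 and 246 CPM with the control guide (log2 change of 0.18, SE 0.24). Rpl39, which lines the exit tunnel, was at 49.7, 56.0 and 29.1 CPM against 48.8, 41.9 and 23.7 CPM (0.30, SE 0.37).

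Several ribosomal proteins have a second gene, and the share of the copy does not depend on library size. Of 8 pairs considered, 5 had at least 10 counts of the second copy on average and were tested by an exact two-sided permutation test over the 6 libraries, in which 3 against 3 cannot give a p below 0.1. Rpl22l1 took 26.7, 26.6 and 15.3% of the counts of Rpl22 and Rpl22l1 in guide and 22.2, 20.3 and 15.5% in control replicates 1, 2 and 3 (exact p = 0.6, adjusted p = 0.875 over 5 pairs). Rps27l took 10.9, 11.0 and 12.2% of its pair with Rps27 in guide and 8.90, 8.69 and 11.8% in control libraries (exact p = 0.3, adjusted p = 0.875). The 2 replicate 3 libraries had the lowest Rpl22l1 and the highest Rps27l shares of their groups. Against their partners, the 2 paralogs thus lay on opposite sides in those libraries.

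In each of the other 3 pairs, replicate 3 had the highest share of both groups. Rpl36al, an autosomal copy of the X-linked Rpl36a, took 34.3, 34.4 and 39.8% in guide and 33.6, 35.1 and 41.5% in control libraries (exact p = 0.7). Rpl7l1, a paralog of Rpl7, took 9.63, 8.82 and 10.3% against 7.29, 8.92 and 12.9% (exact p = 0.9). Rps4l, a copy of Rps4x, took 5.99, 16.3 and 21.9% against 18.9, 17.5 and 22.6% (exact p = 0.4). Guide replicate 1 was far below the other 5 libraries there, with 23.2 CPM of Rps4l against 71.7 to 88.5 CPM. Rpl3l, the form of Rpl3 known from muscle, had at most 6 counts in any library and Rpl10l, known from testis, had 0 in all, which allows up to 0.0875 to 0.121 CPM. Without control replicate 3 the difference in mean share (guide minus control, in percentage points) went from 3.56 to 1.65 for Rpl22l1, from 1.55 to 2.56 for Rps27l and from -4.90 to -3.44 for Rps4l. It turned from -0.583 to 1.81 for Rpl36al and from -0.125 to 1.47 for Rpl7l1. The exact permutation p was then 0.1 for Rps27l, the lowest that this test can give without control replicate 3. For the other pairs it was 0.3 or higher. Near-identical copies can exchange or lose reads in counting, so shares of such pairs carry that uncertainty.

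**Figure D5:**
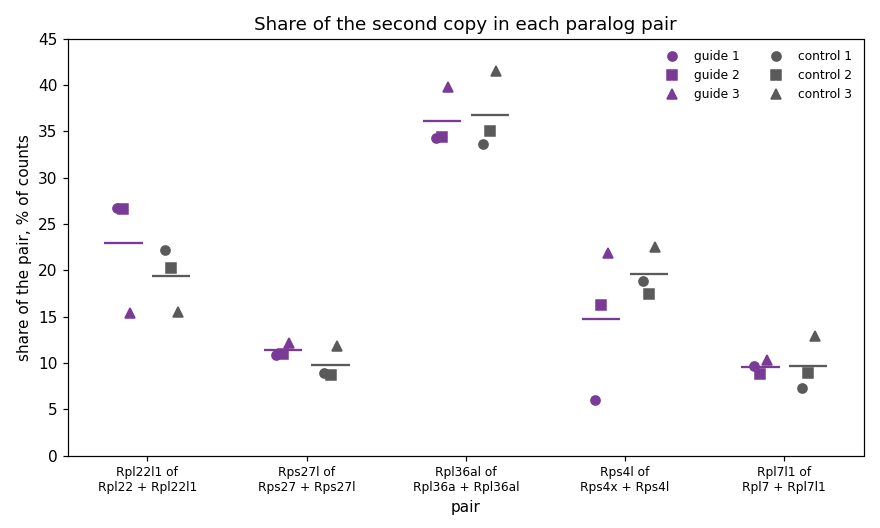
Share of the second copy in the counts of 5 paralog pairs, in percent, for each guide (purple) and control (grey) library, with symbols for replicates 1 (circle), 2 (square) and 3 (triangle) and lines at group means. Rps4l is at 5.99% in guide replicate 1 and at 16.3 to 22.6% elsewhere, and Rpl22l1 is lowest in both replicate 3 libraries.

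Of 13 further ribosomal protein genes and copies that the pattern leaves out, 11 were tested, and 0 were called or had an unadjusted p under 0.05 by edgeR (median log2 fold change 0.13). Rps3a1, a small subunit protein, was at 585 ± 94.4 CPM with the Nr2e3 guide and 492 ± 126 CPM with the control guide, and Rack1, a signalling scaffold on the small subunit, at 402 ± 21.2 and 415 ± 79.7 CPM (SD, n = 3 each). In control replicate 3, 10 of these 11 were below both other controls, with a median log2 ratio of -0.69.

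Other parts of the translation machinery did not all follow the shift of control replicate 3, and 0 of their genes passed by edgeR, against 0.344% of all genes. Of 18 elongation factors and other genes known for a pyrimidine tract, 15 were below both other controls there (median log2 ratio -0.24). Eef1a1, which brings aminoacyl-tRNA to the ribosome, was at 3152 ± 526 CPM with the Nr2e3 guide and 3263 ± 313 CPM with the control guide, and Eef2, the translocase, at 1955 ± 107 and 2264 ± 129 CPM. Of 21 initiation factors 8 were below and 10 above both other controls (median ratio 0.06). Eif4a2, a helicase of the cap-binding complex, had the smallest unadjusted p of that list (log2 change of 0.35, SE 0.13, adjusted p = 0.708).

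Ribosome assembly genes (32, median log2 ratio 0.10 in control replicate 3), RNA polymerase I genes (13, median 0.00) and ribosome rescue genes (11 tested, median 0.19) did not share the fall. Ncl, nucleolin, was at 248 ± 14.04 CPM with the Nr2e3 guide and 260 ± 8.54 CPM with the control guide, and Rrn3, the initiation factor of RNA polymerase I, at 117 ± 1.72 and 125 ± 8.72 CPM. Of 19 tested genes of mTORC1 and its control of these mRNAs, 16 were above both other controls (median 0.43). Rheb, the small GTPase that activates mTORC1, had the smallest unadjusted p of that list, at 20.9 ± 2.53 against 12.6 ± 1.75 CPM (log2 change of 0.79, SE 0.23, adjusted p = 0.495). Of all 13723 genes compared, 35.2% had their highest and 15.4% their lowest value of the 6 libraries in control replicate 3. That is a stricter measure than above or below both other controls. Other genes of 2800 bases or more had a median log2 ratio of 0.26 there. The part of transcript length in the values of the lists was not tested.

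Mitochondrial ribosomal proteins shared the fall in part. Of 78 such genes, 60 were below both other controls in control replicate 3 (median log2 ratio -0.32), while 0 passed by edgeR between guide and control and 1 had an unadjusted p under 0.05 (median log2 fold change 0.13). That gene was Mrpl41, at 111 ± 0.712 CPM with the Nr2e3 guide and 75.0 ± 9.21 CPM with the control guide (0.63, SE 0.16, adjusted p = 0.350). Of 47 nuclear genes of respiratory complexes I and IV, 45 were below both other controls (median -0.63), close to the value of ribosomal protein genes, with 0 at an unadjusted p under 0.05 between the groups.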

How the data were processed

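Each library has 1 deposited table of unnormalised counts of reads by gene name. The submitters' processing notes name STAR 2.7.3a, cutadapt, DESeq2 1.42.0 and HTSeq 0.12.4; the build is GRCm38 (mm10). Which annotation and strand option were used in counting is not given in the sources used here. Entries without a gene (21.6 to 23.7% of counts) were left out. CPM is the count scaled to a total of 1000000 gene counts, without further factors. Groups were compared with edgeR 4.0.16 (R 4.3.3): TMM factors, filterByExpr by group (min.count 10, 15 in total), glmQLFit, glmQLFTest, group as the only term, Benjamini-Hochberg adjusted p under 0.05. SE is the fold change over the root of F. Transcript lengths are those of the shortest best-supported principal transcript in GENCODE M21, coordinates those of RefSeq GRCm38.p6. The test was checked on simulated counts drawn with the same dispersion for every gene and no shift shared by genes of a library. That check therefore does not cover the shared shift of these data. Libraries of a group differed by far more than sampling noise (chi-square per degree of freedom 15.7 to 151). Members and lists were chosen with earlier results of these data known. Named members are, by rule, the highest and lowest per kb and by fold change, the smallest p, paralogs, and the extremes in control replicate 3; list genes are the 2 most abundant and the smallest p. Stalk, X-linked, Rpl41, Rps10 and non-overlapping genes were named after their values were seen. The p-values measure the spread between animals. Floors of 3 counts cover counting error only, since reads carry no molecular identifiers. Alternatives comprised DESeq2 1.42.0, limma-voom 3.58.1 with a quality weight for each library, other factors and filters, sex or replicate terms, and left-out libraries. The limma-voom fit relative to the members had no such weights. Values of 1 member and 1 marker gene by name are not reported here; both are in the counts and sums.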

Additional observations from a re-analysis of the deposited data

How the results depend on the processing

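No ribosomal protein gene passed in any of the 18 alternative settings or at an adjusted p under 0.1, and none relative to the other members in 11 further fits. Of 432 fold changes of 24 named members under these settings, 41 changed sign, all without a call, and 8 members kept their sign throughout. The smallest edgeR adjusted p of any member in these settings was 0.340 for Rpl41, followed by 0.341 for Rpl35, both without the 2 replicate 3 libraries. The shares of the stalk and X-linked genes without control replicate 3 were added after seeing the data. Over all genes, the 59 calls became 271 with the DESeq2 Wald test, 179 with limma-voom, 155 without a count filter, 91 at an adjusted p under 0.1, 32 with the replicate number as a block, 6 with sex as a term and 0 among males only, where 1 guide library was assumed to vary like the controls; leaving out 1 library gave 14 to 89. Replicate numbers name different animals: same-numbered libraries correlated at 0.20, -0.18 and 0.10 in their deviations from group means, so the block is a check only. With it, the lowest edgeR adjusted p of members were those of Rpl37a (0.717), Rpl35 (0.742) and Rpl41 (0.766). With 3 animals a group and a median SE of 0.28, changes of the size seen here were not detectable.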
